A study of Mus musculus with 34 samples.

Results

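The Notch pathway and the factors that commit intestinal epithelium to the secretory fate were followed through the promoter mark H3K4me3 at 10 genes. They were the ligands Dll1, Dll4 and Jag1, the receptors Notch1 and Notch2, the DNA-binding factor Rbpj, the target Hes1 and the secretory regulators Atoh1, Gfi1 and Spdef. The genes were chosen by name, and each was given the mean H3K4me3 signal within 1000 bp of its gene 5′ end (GENCODE M21, mm10), so they are 10 of 21938 protein-coding genes measured in the same way. The study compared normal-appearing small intestine of wild-type (WT) C57BL/6J mice and of ApcMin/+ mice on the same strain, which carry 1 mutant allele of the tumour suppressor Apc in every cell. Villus cells were scraped from the intestine, and H3K4me3 was mapped in their unfixed nuclei by CUT&RUN, in which a nuclease tethered to the antibody cuts out the DNA around the marked nucleosomes for sequencing. The labels give an age of 5 weeks, and 2 libraries of each genotype were analysed here. No other treatment or allele is given for either genotype.

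Notch signalling sorts intestinal progenitors by lateral inhibition. A cell that displays Delta-like ligands activates Notch receptors on its neighbours, the receptor's intracellular domain is released and joins Rbpj at DNA, and Hes1 is switched on and holds Atoh1 off, so that the neighbour becomes absorptive. The cell that keeps Atoh1 turns to the secretory fate, and Gfi1 and Spdef then act in goblet and Paneth cell differentiation. H3K4me3 is laid down at the start of genes in use or ready for use, and most strongly at promoters rich in CpG.

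The promoter sequences of 4 of these genes are given first, because the marked start of a gene and its CpG content recur in the values that follow. They are RefSeq promoters of GRCm38.p6, the assembly of mm10, each of 300 bases from 250 before the RefSeq start. Of the 10 genes, 9 had an entry (12 promoters), and Hes1 had none. Dll4 had the strongest mark of the 10 genes at the gene 5′ end, and Notch1 is shown at the start that carried its mark, which is not its gene 5′ end. In both, capitals mark CpG, of which Dll4 (chr2:119325534-119325833, plus strand) has 17 and Notch1 (chr2:26503773-26504072, minus strand) has 23.

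Dll4: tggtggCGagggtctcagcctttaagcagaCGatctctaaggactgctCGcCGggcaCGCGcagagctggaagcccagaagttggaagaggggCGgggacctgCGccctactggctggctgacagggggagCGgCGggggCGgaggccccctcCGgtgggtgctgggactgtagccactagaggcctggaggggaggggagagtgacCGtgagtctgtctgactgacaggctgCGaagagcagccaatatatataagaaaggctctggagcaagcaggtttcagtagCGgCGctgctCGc

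Notch1: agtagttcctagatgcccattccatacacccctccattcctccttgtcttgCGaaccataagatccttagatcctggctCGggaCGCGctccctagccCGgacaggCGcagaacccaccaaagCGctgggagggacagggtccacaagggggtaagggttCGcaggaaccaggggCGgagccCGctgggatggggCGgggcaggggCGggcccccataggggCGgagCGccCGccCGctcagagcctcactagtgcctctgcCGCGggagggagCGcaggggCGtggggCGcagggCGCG

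Rbpj and Spdef were the only 2 of the 9 genes whose RefSeq promoters hold the core letters of the Rbpj binding motif, TGGGAA or its reverse complement TTCCCA, and capitals mark these matches below. The Rbpj promoter (chr5:53590096-53590395, plus strand) has 2 matches and 26 CpG, and that of Spdef (chr17:27728902-27729201, minus strand) has 1 match and 7 CpG. Either form occurs in 25.6% of the 32851 RefSeq promoters of this length, so a match is a description of the letters.

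Rbpj: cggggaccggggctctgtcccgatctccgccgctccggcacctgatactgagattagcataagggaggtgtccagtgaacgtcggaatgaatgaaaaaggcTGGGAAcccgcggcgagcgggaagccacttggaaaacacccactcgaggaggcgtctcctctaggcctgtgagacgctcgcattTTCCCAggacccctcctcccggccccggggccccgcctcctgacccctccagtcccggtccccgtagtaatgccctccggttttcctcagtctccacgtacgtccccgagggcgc

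Spdef: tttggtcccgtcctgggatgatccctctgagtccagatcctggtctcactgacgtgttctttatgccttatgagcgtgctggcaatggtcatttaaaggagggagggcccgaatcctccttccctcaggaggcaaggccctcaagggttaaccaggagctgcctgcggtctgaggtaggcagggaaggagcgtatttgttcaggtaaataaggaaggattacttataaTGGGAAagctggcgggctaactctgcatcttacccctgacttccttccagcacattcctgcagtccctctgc

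The CpG count was 7 in the median RefSeq promoter, the same as in Spdef. It was 41 in Notch2, 28 in the second Rbpj promoter, 22 in Jag1, 20 in Atoh1, 15 and 24 in the 2 promoters of Dll1 and 16 and 10 in those of Gfi1. Spdef was therefore the only 1 of the 9 genes whose promoters were not above the median in CpG.

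The libraries differed in ways that touch every value below. They held 1430000 and 4790000 tags in WT replicates 1 and 2, and 3700000 and 5470000 in ApcMin/+ replicates 1 and 2. The signal is coverage scaled to 10000000 tags per library, so the fragments behind a value, a tag being taken as 1 fragment, are given with it, and few fragments mean a large counting error. ApcMin/+ replicate 1 stood apart: 43.2% of its signal lay in enriched regions, against 11.9% to 22.6% in the other 3 libraries, and its median tested promoter had a signal of 13.2 against 3.06 to 4.53. Promoters were tested where the mean signal of the 4 libraries was at least 2, which 9930 genes passed (45.3%). Among enterocyte genes 8 of 10 passed (summed signal 33.3 to 67.6 in WT and 43.3 to 158 in ApcMin/+), and among crypt stem and progenitor markers 4 of 7. In contrast, 0 of 7 goblet, 0 of 4 Paneth, 1 of 7 enteroendocrine and 0 of 5 tuft markers did, as did 0 of 7 endothelial, 0 of 7 mesenchymal and 0 of 10 immune markers. In such a mixed sample, fewer cells of a type and less mark per cell cannot be told apart.

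The 3 ligands held the highest places among the 10 genes at the gene 5′ ends. Dll4 encodes a Delta-like ligand (ENSMUSG00000027314.6, chr2:119325784-119335962, plus strand). Its signal was 8.02 and 5.57 in WT (23 and 53 fragments) and 24.5 and 5.76 in ApcMin/+ (182 and 63 fragments). ApcMin/+ replicate 1 was the high library, while ApcMin/+ replicate 2 lay between the WT libraries, so the genotypes overlapped. The means were 6.79 ± 1.73 in WT and 15.1 ± 13.3 in ApcMin/+ (SD, n = 2 each). On the log2(signal + 1) scale used for all differences, ApcMin/+ was 0.77 ± 1.24 higher (SE), with an adjusted p of 0.683 in limma. Each SE comes from the limma fit, in which promoters of similar signal share a spread, so it is not the gene's own spread. Within each library Dll4 ranked above 90.3% to 96.9% of all promoters, the highest mean place of the 10 genes (93.9). The antisense gene Gm14207 starts inside the same window, so the mark of the pair is not separated in this window.

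Dll1, the Delta-like ligand that secretory progenitors display (ENSMUSG00000014773.13, chr17:15367354-15376872, minus strand), had a signal of 9.09 and 3.67 in WT (26 and 35 fragments) and of 14.8 and 5.42 in ApcMin/+ (109 and 59 fragments). As for Dll4, ApcMin/+ replicate 1 was highest and ApcMin/+ replicate 2 fell between the WT libraries. The difference was 0.55 ± 1.17, with an adjusted limma p of 0.704. Dll1 was marked mostly inside the gene, with 84.3% of the signal within 1000 bp lying downstream of the 5′ end, against 63.6% over all tested promoters. An antisense lincRNA gene, A930024N18Rik, shares this stretch.

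Jag1, a ligand of the Jagged class (ENSMUSG00000027276.7, chr2:137081456-137116644, minus strand), had 1.52 and 2.92 in WT (4 and 28 fragments) and 11.2 and 2.71 in ApcMin/+ (83 and 30 fragments). Again ApcMin/+ replicate 1 alone was high, 5.04 times the WT mean, against 1.22 times in ApcMin/+ replicate 2, and the genotypes overlapped. The difference of 1.10 ± 0.82 had an adjusted limma p of 0.683. Around its 5′ end the Jag1 mark was split: the mean of the 4 libraries was 1.35 within 100 bp of the start and reached a maximum of 23.3 at 1140 bp downstream, whereas the average tested promoter had its maximum of 13.3 at 120 bp downstream.

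**Figure D1:**
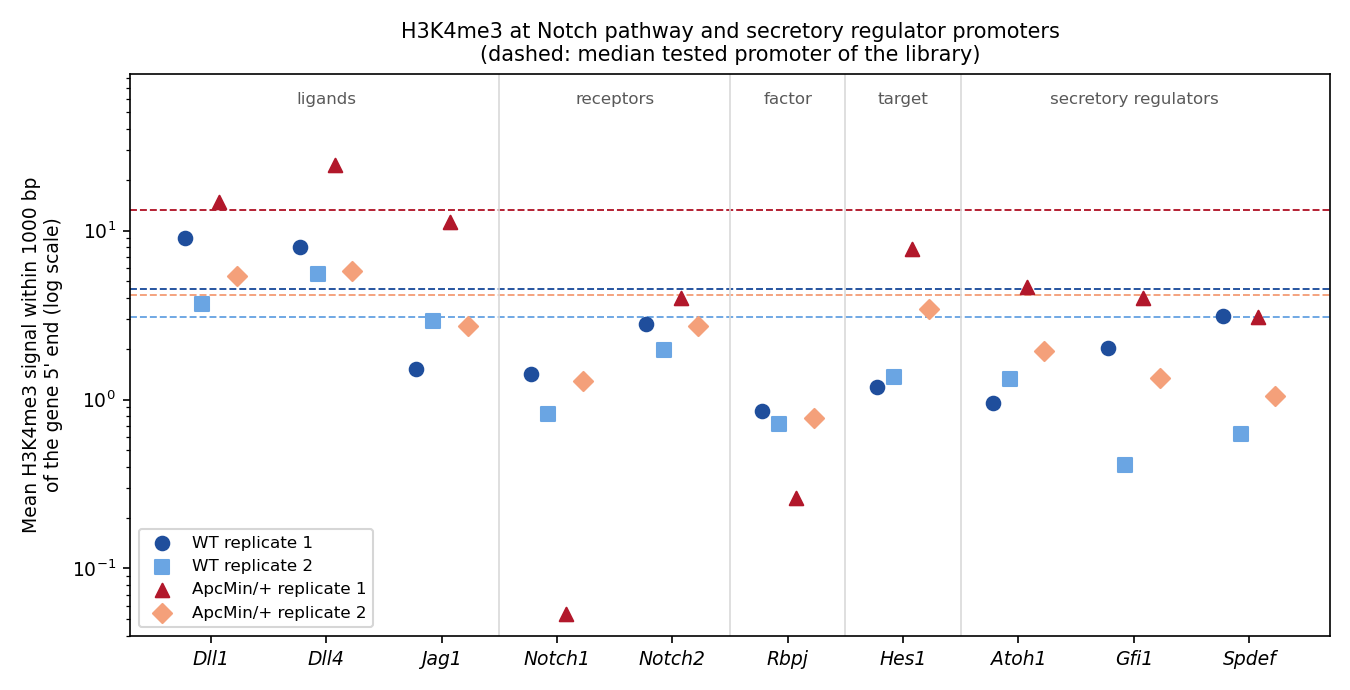
Mean H3K4me3 signal within 1000 bp of the gene 5′ end (log axis) of the 10 genes, 1 point per library, with the median tested promoter of each library as a dashed line in its colour. ApcMin/+ replicate 1 is the highest library at 7 genes and the lowest at Notch1 and Rbpj, and Hes1 and Atoh1 are the 2 genes at which both ApcMin/+ points lie above both WT points.

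The receptors were weakly marked at their annotated gene ends. Notch2, a receptor with a known part in the crypt together with Notch1 (ENSMUSG00000027878.11, chr3:98013527-98150361, plus strand), had 2.79 and 1.98 in WT (8 and 19 fragments) and 4.01 and 2.74 in ApcMin/+ (30 fragments in each). ApcMin/+ replicate 2 lay between the WT libraries. The difference was 0.37 ± 0.72, the smallest of the 6 tested genes, with an adjusted limma p of 0.693. Although Notch2 had the most CpG in its RefSeq promoter (41, more than 96.5% of all promoters), its place was 62.0 on average among promoters.

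At the gene 5′ end of Notch1 (ENSMUSG00000026923.15, chr2:26457903-26516663, minus strand) the signal was 1.42 and 0.819 in WT (4 and 8 fragments) and 0.0537 and 1.28 in ApcMin/+ (0 and 14 fragments). Rbpj, the factor through which Notch acts on DNA (ENSMUSG00000039191.12, chr5:53466152-53657362, plus strand), had 0.857 and 0.715 in WT (2 and 7 fragments) and 0.26 and 0.779 in ApcMin/+ (2 and 9 fragments). At both genes ApcMin/+ replicate 1, high elsewhere, was the lowest library, and neither gene passed the filter on low signal.

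These 2 ends are outlying starts of the annotation rather than the marked promoters. The strongest of the 11 annotated starts of Notch1 lay 12841 bp downstream of the gene end, at chr2:26503822, where the signal was 2.94 and 2.28 in WT (8 and 22 fragments) and 11.3 and 3.46 in ApcMin/+ (84 and 38 fragments). For Rbpj, with 12 annotated starts, it lay 124319 bp downstream, at chr5:53590471, where the signal was 7.34 and 3.13 in WT (21 and 30 fragments) and 16.2 and 3.85 in ApcMin/+ (120 and 42 fragments). The mean over the 4 libraries was 5.61 times that at the gene end for Notch1 and 11.7 times for Rbpj, and ApcMin/+ replicate 1 turned from the lowest to the highest library at both. This start is the one that RefSeq lists for Notch1, and the 2 RefSeq starts of Rbpj lie close to it, 124194 bp and 124334 bp downstream of the gene end. Such a change, from under the filter at the gene end to above it at a start over 2000 bp away, was seen at 671 of the 21938 genes (3.06%).

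**Figure D2:**
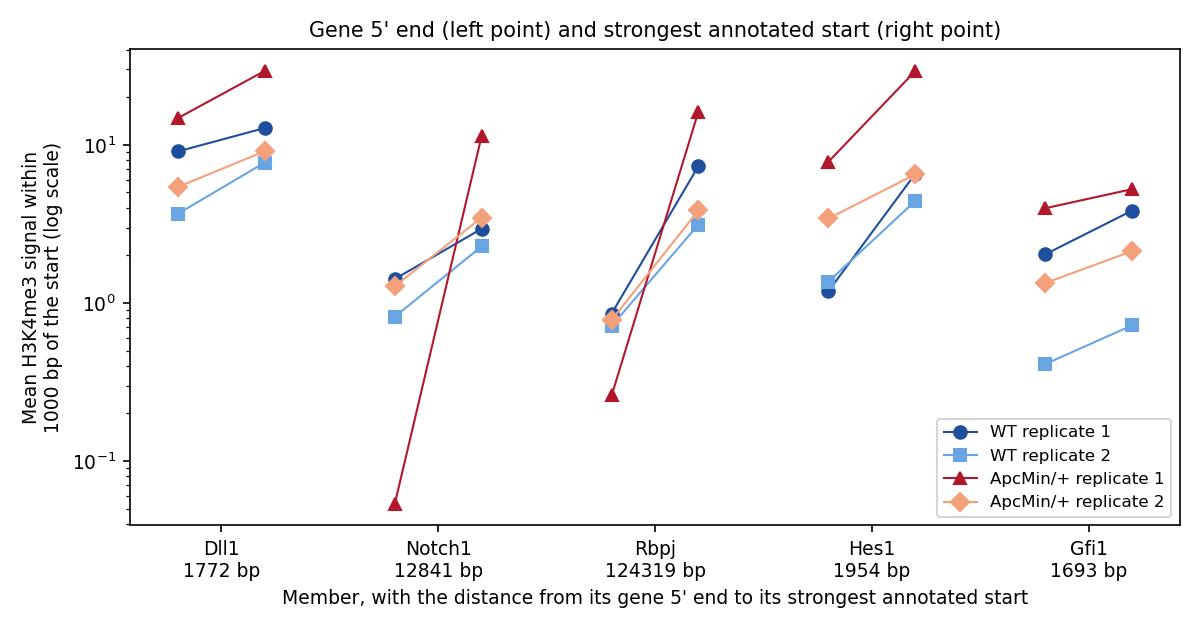
Mean H3K4me3 signal within 1000 bp (log axis) at the gene 5′ end (left point) and at the strongest annotated start (right point) of 5 genes, 1 line per library, with the distance between the starts under each gene name. The lines of ApcMin/+ replicate 1 cross those of the other libraries at Notch1 and Rbpj, where the mark lies 12841 bp and 124319 bp inside the annotated gene.

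Hes1 differed most between the genotypes among the 10 genes. This repressor of Atoh1 (ENSMUSG00000022528.8, chr16:30064384-30067796, plus strand) had 1.19 and 1.36 in WT (3 and 13 fragments) and 7.82 and 3.42 in ApcMin/+ (58 and 37 fragments). Both ApcMin/+ libraries lay above both WT libraries, at 6.13 and 2.68 times the WT mean. The means were 1.28 ± 0.125 in WT and 5.62 ± 3.11 in ApcMin/+ (SD, n = 2 each). The difference was 1.46 ± 0.72 with a 95% confidence interval of 0.052 to 2.86, and its p in limma was 0.042 before adjustment and 0.683 after it. Hes1 passed the filter on low signal only through ApcMin/+, so no conclusion is drawn from this interval or p. Without the filter, limma gave an interval of −0.097 to 3.01, which included 0. Hes1 stood higher in ApcMin/+ by its place among all promoters as well, at 47.2 and 56.3 in WT and 64.7 and 69.9 in ApcMin/+. Its difference depended on the start: of its 4 annotated starts, the one 956 bp downstream had 2.50 and 2.47 in WT and 18.2 and 4.15 in ApcMin/+, whereas at the strongest, 1954 bp downstream, the signal was 6.55 and 4.41 in WT and 29.3 and 6.50 in ApcMin/+. At this last start ApcMin/+ replicate 2 lay between the WT libraries, and the difference was 1.24 with an adjusted limma p of 0.682.

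Atoh1, the factor required for the secretory lineage (ENSMUSG00000073043.5, chr6:64729125-64731245, plus strand), had 0.955 and 1.32 in WT (3 and 13 fragments) and 4.63 and 1.94 in ApcMin/+ (34 and 21 fragments). Atoh1 was the other gene at which the genotypes did not overlap. The difference was 0.93 ± 0.61, with a confidence interval of −0.26 to 2.12 and an adjusted limma p of 0.683. Hes1 and Atoh1, which act against each other in a cell, were thus both higher in both ApcMin/+ libraries of this mixed tissue. Markers of some other cell populations also stood higher in the same libraries, in which this order held at 26.0% of all promoters. For crypt stem and progenitor cells, both ApcMin/+ libraries were above both WT libraries at 5 of 7 (Lgr5, Ascl2, Smoc2, Mki67 and Rnf43), the summed signal was 10.9 to 14.9 in WT and 17.7 to 53.7 in ApcMin/+, and Olfm4 was at 0 in 1 library. For immune cells it was 6 of 10, with a summed signal of 5.92 to 6.57 in WT and 7.45 to 11.8 in ApcMin/+. Ptprc and Lyz2 were at 0 in at least 1 library, and Cd79a went the other way (7.17% of all promoters). By place the order held at 3 of the 7 crypt and 4 of the 10 immune markers (15.3% of all promoters). Summed signal was also higher for enteroendocrine (4.06 to 5.39 in WT, 5.84 to 8.30 in ApcMin/+) and tuft markers (3.38 to 4.27, 4.72 to 4.87). There the order held at 1 of 7 and 1 of 5 genes. For endothelial markers the summed signal was lower in ApcMin/+ (5.01 to 5.67 in WT, 3.98 to 4.85 in ApcMin/+). Both ApcMin/+ libraries were above both WT libraries at 0 of these 7 genes and below at 1 (Esam). The summed signal of the genotypes overlapped for mesenchymal markers (2.09 to 3.76, 3.41 to 4.71) and for enterocyte markers. The part of any of these populations in the result was not tested.

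Gfi1, a repressor that acts below Atoh1 (ENSMUSG00000029275.18, chr5:107716657-107726036, minus strand), had 2.03 and 0.411 in WT (6 and 4 fragments) and 3.97 and 1.34 in ApcMin/+ (29 and 15 fragments). The ratio of the higher to the lower library was larger within WT than within ApcMin/+, the genotypes overlapped, and the mean of 1.94 fell just short of the filter. Spdef, an ETS factor of goblet and Paneth cell maturation (ENSMUSG00000024215.14, chr17:27714352-27728955, minus strand), had 3.14 and 0.626 in WT (9 and 6 fragments) and 3.08 and 1.04 in ApcMin/+ (23 and 11 fragments). Here replicate 1 was the higher library in both genotypes, the genotypes overlapped entirely, and the mean of 1.97 also missed the filter. Goblet markers were low in the same libraries, with a summed signal over 7 genes of 5.25 to 7.33 in WT and 6.57 to 13.7 in ApcMin/+, and both ApcMin/+ libraries were above both WT libraries at 2 of 7 (Tff3 and Spink4; 26.0% of all promoters) and below at 1 (Zg16; 7.17%). The 4 Paneth markers summed to 1.40 to 2.09 in WT and 1.75 to 2.77 in ApcMin/+, with Mmp7 at 0 in 1 library.

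In order of mean place among all promoters the genes stood Dll4 (93.9), Dll1 (87.4), Jag1 (66.1), Notch2 (62.0), Hes1 (59.5), Atoh1 (52.6), Spdef (50.9), Gfi1 (46.7), Notch1 (39.1) and Rbpj (34.9). Dll4 and Dll1 overlapped each other over the 4 libraries, with 80.9 to 96.1 for Dll1, and both lay above the range of every other gene. From Jag1, with a range of 52.9 to 75.6, down to Notch1, with 10.5 to 52.2, each gene overlapped its neighbours in the order. At their strongest starts Dll1 (98.6), Dll4 (92.2), Hes1 (91.0) and Rbpj (78.9) led, and Spdef (46.6) was last.

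The mark spread to different widths. Enriched regions were stretches in which the mean of the 4 tracks was at least 5 times the genome-wide mean, and their median width was 2000 bp over the tested promoters. The region at Hes1 was 6300 bp wide, wider than at 98.2% of tested promoters, and ran from −1883 bp to 4416 bp relative to the 5′ end, beyond the end of the gene. Wide regions were also found at Gfi1 (6100 bp), Dll1 (5900 bp), Jag1 (4500 bp), Atoh1 (3800 bp) and Dll4 (3600 bp). Those at Notch2 (1400 bp), the gene end of Notch1 (1300 bp) and Spdef (500 bp) were narrower than the median. The gene end of Rbpj had none, and the region at its marked promoter was 3100 bp wide. At 10 times the genome-wide mean the regions were 4400 bp at Dll1, 3600 bp at Hes1, 3400 bp at Jag1 and 2300 bp at Dll4. The median was then 1400 bp. Only regions that reach the 1000 bp around the gene 5′ end were counted, and Gfi1 had none at this threshold. The mean signal of Gfi1 was highest (7.91) at 1940 bp downstream, outside that window. This maximum came mostly from WT replicate 1, the shallowest library (21.9 at 1920 bp). WT replicate 2 peaked at 3.21 (1020 bp), ApcMin/+ replicate 1 at 9.22 (440 bp) and ApcMin/+ replicate 2 at 7.20 (1240 bp). Gfi1 shares its region with the antisense gene A430072P03Rik.

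**Figure D3:**
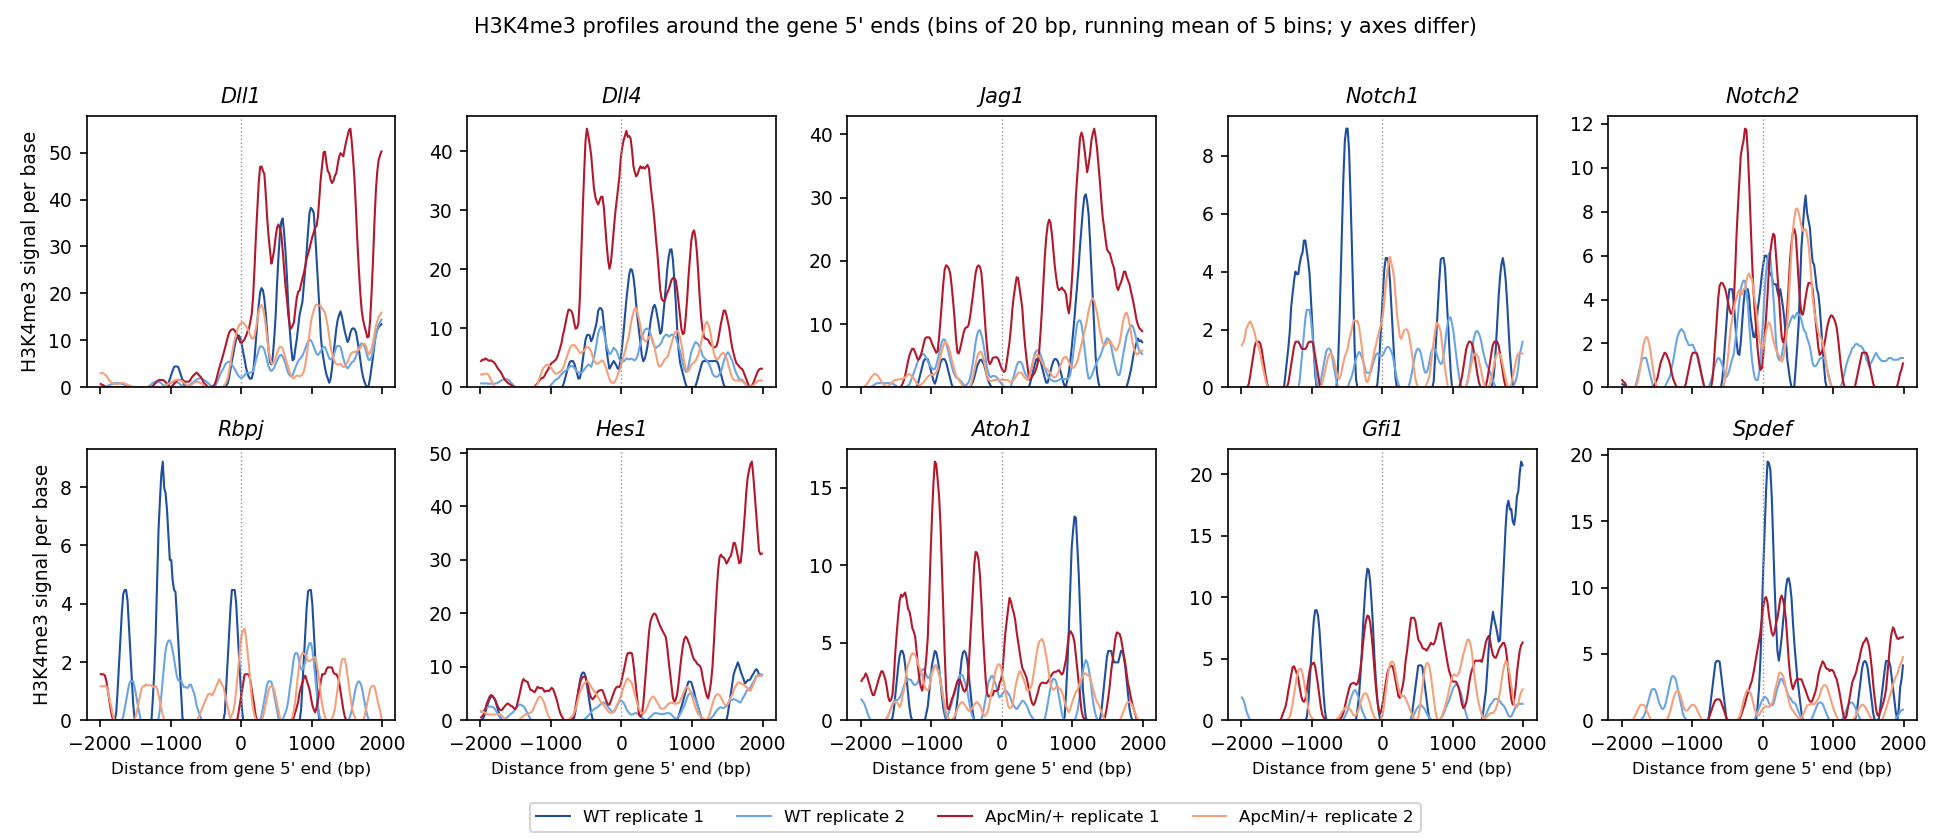
H3K4me3 signal per base (y axis, own scale per gene) against distance from the gene 5′ end (x axis, bp; downstream is positive) for the 10 genes, 1 line per library, as bins of 20 bp smoothed over 5 bins. The signal of Dll1, Jag1, Hes1 and Gfi1 is highest well inside the gene, that of Dll4 straddles the 5′ end, and ApcMin/+ replicate 1 is the tallest line at Dll1, Dll4, Jag1 and Hes1.

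Apart from those at the strongest starts, 25 enriched regions lay more than 1000 bp inside 7 of the genes. Some of these hold other annotated starts, as at Dll1 (chr17:15368390) and Notch1 (chr2:26469749). The highest library at 21 of them was WT replicate 1, the shallowest, in which each fragment weighs most, and ApcMin/+ replicate 1, with the strongest promoters, was lowest at 14. Both ApcMin/+ libraries were above both WT libraries at 3 of the 25 and below them at 4. The share over all enriched regions was not taken, so these counts only describe the 25 regions. Apart from its marked promoter, Notch1 had 7 such regions. At 1 of them, 1200 bp wide and 56262 bp downstream, the signal was 7.05 and 1.39 in WT and 0.862 and 2.69 in ApcMin/+. Jag1 had 3 such regions, and ApcMin/+ replicate 1 was at 0 in 2 of them. Spdef had 5, of which 1 that lay 11854 bp downstream had 2.33 and 2.30 in WT and 5.32 and 4.46 in ApcMin/+, and this was the only 1 of its 5 at which the genotypes did not overlap with ApcMin/+ higher. An annotated start of Spdef lies near that region, 11236 bp downstream. Hes1, Atoh1 and Gfi1 had none.

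Over all genes, limma called 0 of the 9930 tested promoters at an adjusted p under 0.05 (0%), and 132 had an unadjusted p under 0.05, Hes1 among them. Of the 10 genes 6 were tested and 0 were called. The genotypes did not overlap, with ApcMin/+ higher, at 2 of the 10 genes, a share near the 26.0% of all promoters, and with ApcMin/+ lower at 0, against 7.17% of all promoters. Both of the 2 were among the 6 tested genes, and the share among all tested promoters was 38.5%. Hes1 (1.19 and 1.36) and Atoh1 (0.955 and 1.32) were under 2 in both WT libraries, so they passed the filter only through ApcMin/+. Atoh1 passed only through ApcMin/+ replicate 1 (4.63), with 1.94 in replicate 2. Because the filter favoured this order at both, no conclusion is drawn from their place among the tested genes. By place within each library, 2 genes were higher (Hes1 and Atoh1; 15.3% of all promoters) and 1, Rbpj, lower (16.1%). At the strongest annotated starts the 2 genes were Atoh1 and Notch1 (25.8% of all genes). Within 500 bp of the gene 5′ end they were 4, with Notch2 and Dll1 added (25.3%). An exact permutation test of 2 libraries against 2 cannot give a two-sided p below 0.333. The p-values measure only the spread between these libraries. As deposited and after centring, limma took this spread almost wholly from promoters of similar signal, not from each gene's own replicates.

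The median difference over the 10 genes was 0.64, beside 0.35 over all promoters and 0.85 over those tested. ApcMin/+ replicate 1 was the highest library at 7 of the 10 genes and at 54.4% of all promoters. ApcMin/+ replicate 2 lay between the WT libraries at 8 of the 10 and above both at 2, against 36.7% of all promoters above both. Its median tested promoter (4.18) also lay between those of the WT libraries (4.53 and 3.06). Without ApcMin/+ replicate 1 the difference was 0.96 at Hes1, 0.47 at Atoh1, 0.24 at Jag1 and 0.16 at Notch2, and it was −0.097 at Dll1 and −0.19 at Dll4. Without ApcMin/+ replicate 2, limma compared 1 ApcMin/+ library with 2 of WT and called Hes1 (1.96, adjusted p 0.001), Jag1 (1.96, adjusted p 0.001) and Atoh1 (1.40, adjusted p 0.012), along with 65.2% of all tested promoters. At the strongest starts it then called 6 of the 10 genes, along with 65.9% of the promoters tested there.

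Each library was then centred on its median tested promoter, which takes the same shift off every promoter of that library. With this centring limma called 12 of 9930 (0.121%) and none of the 10 genes. The shift is that of the tested promoters, whose median difference was 0.85, against 0.35 over all promoters. Weakly marked genes were lowered by it as well, such as Notch1 (from −0.44 to −1.29) and Spdef (from 0.15 to −0.70). The centred difference was 0.60 ± 0.44 at Hes1, 0.24 ± 0.36 at Jag1, 0.079 ± 0.60 at Atoh1, −0.083 ± 0.29 at Dll4, −0.30 ± 0.28 at Dll1 and −0.49 ± 0.44 at Notch2. Relative to the median promoter, 3 of the 6 tested genes were thus higher and 3 lower, and each 95% confidence interval included 0. Hes1 was the 1 gene at which both centred ApcMin/+ libraries still lay above both WT libraries, against 5.96% of all promoters. That share includes the promoters under the filter, which the shift also lowers, and no share over tested promoters alone was taken.

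**Figure D4:**
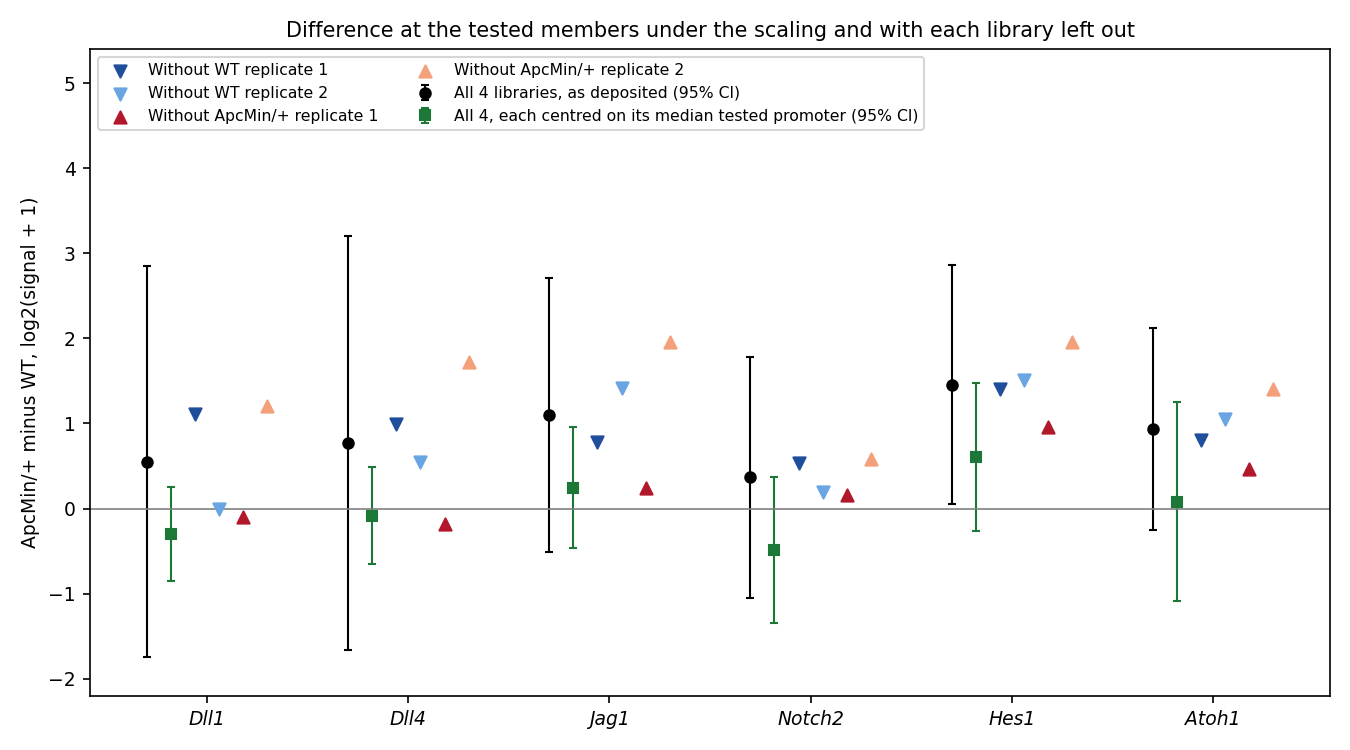
Difference in H3K4me3 (ApcMin/+ minus WT, log2(signal + 1), y axis) at the 6 tested genes, for all 4 libraries as deposited (black, 95% confidence interval), after centring on the median tested promoter (green, 95% confidence interval) and with each library left out (triangles). Hes1, Atoh1 and Jag1 stay above 0 in each of these fits, Notch2 falls below 0 after centring, and Dll1 and Dll4 fall below 0 after centring and without ApcMin/+ replicate 1.

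The rest of the pathway was read from lists of its other genes. Of 28 genes that process or traffic the receptors and ligands, 21 were tested and 0 were called with or without centring. Both ApcMin/+ libraries were above both WT libraries at 15 of 28, an order found at 26.0% of all and 38.5% of tested promoters. Adam17, a protease that can shed the Notch ectodomain, had 5.23 and 5.26 in WT and 30.9 and 7.59 in ApcMin/+, and stood highest in its list relative to the median promoter (0.55 ± 0.29). Mib2, a ubiquitin ligase that acts on ligands, followed (0.47 ± 0.28). Lowest were Rfng, a glycosyltransferase of the Fringe family (−0.66 ± 0.36), and Neurl1b, another ubiquitin ligase of ligands (−0.73 ± 0.43), and both of these had overlapping genotypes.

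Among 22 genes of the nuclear complex and its corepressors, 19 were tested, 0 were called and 8 of the 22 had both ApcMin/+ libraries above both WT libraries, close to the 38.5% of tested promoters. Kdm5a, a demethylase that removes H3K4 methylation and binds Rbpj, had 1.39 and 5.08 in WT and 22.7 and 5.71 in ApcMin/+ and the largest centred difference of the list (0.87 ± 0.29, adjusted limma p 0.697). Its low WT replicate 1 value rested on 4 fragments. The SE, shared by promoters of similar signal, does not hold the wide gap between its own WT libraries. Ctbp1, a corepressor, stood at 0.62 ± 0.38, and the lowest were Spen, a corepressor that binds Rbpj (−0.31 ± 0.57), and the acetyltransferase Kat2b (−0.55 ± 0.32).

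Of 9 genes listed as Notch target factors (other Hes and Hey genes and Nrarp), 3 were tested. Whether each responds to Notch in this tissue was not tested. Hes6, a Hes family member that opposes Hes1, had 3.49 and 1.68 in WT (10 and 16 fragments) and 16.3 and 5.32 in ApcMin/+ (121 and 58 fragments). Its genotypes did not overlap, and its difference was 1.59 ± 0.99 as deposited (adjusted limma p 0.683) and 0.74 ± 0.30 after centring. Nrarp, a feedback inhibitor of Notch, had 3.94 and 3.47 in WT and 11.7 and 4.06 in ApcMin/+ and stood at −0.09 ± 0.30 after centring, and Hes2 at −0.41 ± 0.29. The other 7 receptors and ligands (Notch3, Notch4, Dll3, Jag2, Dlk1, Dlk2 and Dner) all missed the filter, with a mean signal of 0.50 to 0.60 in WT and 0.69 to 0.78 in ApcMin/+.

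Of 28 further secretory lineage factors 12 were tested, 0 were called, and 9 of the 28 had both ApcMin/+ libraries above both WT libraries, between the 26.0% of all and the 38.5% of tested promoters. Foxa1, a factor of goblet and enteroendocrine cells, had 1.39 and 1.36 in WT and 11.0 and 1.92 in ApcMin/+ (0.46 ± 0.45 after centring). Creb3l4 had 0.70 and 0.80 in WT (2 and 8 fragments) and 5.24 and 1.74 in ApcMin/+ (0.39 ± 0.67). Foxa1 and Creb3l4 were under 2 in every other library, so they passed the filter only through ApcMin/+ replicate 1. Sox4 (−0.21 ± 0.31) and Id2 (−0.18 ± 0.31) were lowest. The enteroendocrine factors Neurog3, Neurod1, Pax4 and Isl1 were each at 0 in at least 1 library. The median difference was 0.93 for the processing list, 0.78 for the nuclear complex, 0.45 for the targets, 0.62 for the secretory factors and 0.23 for the other receptors and ligands, beside 0.35 over all promoters and 0.85 over those tested.

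**Figure D5:**
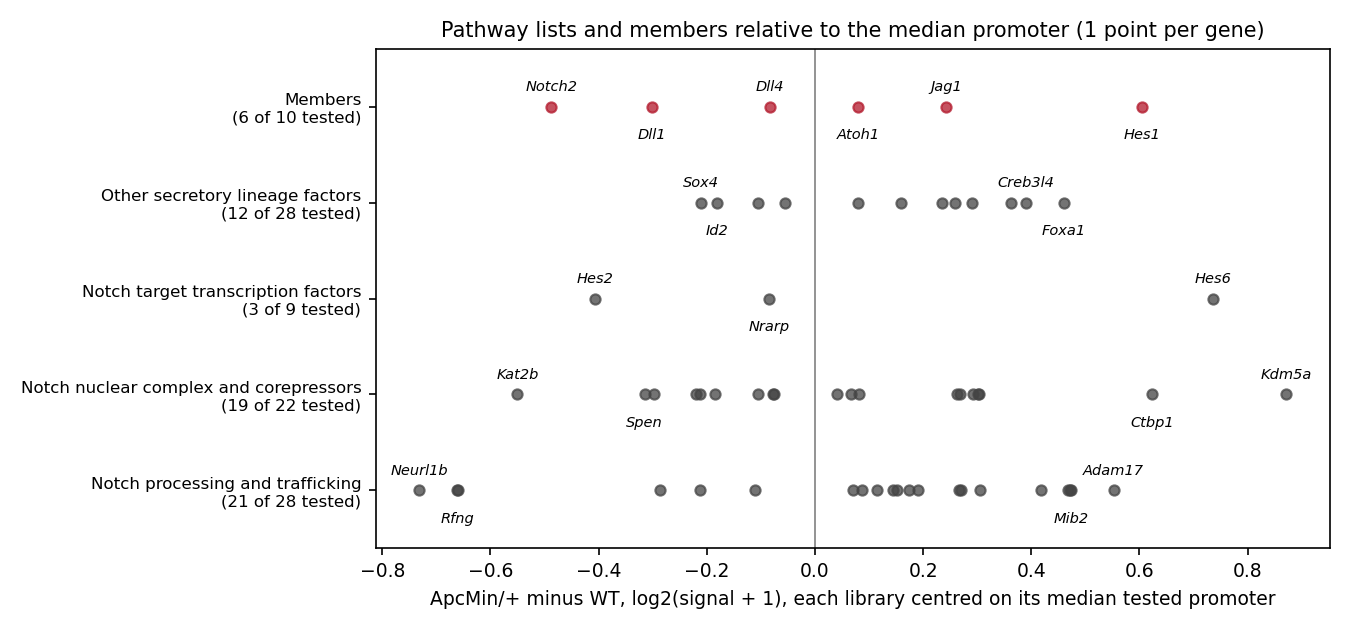
Difference in H3K4me3 relative to the median tested promoter (ApcMin/+ minus WT, log2(signal + 1), x axis), 1 point per tested gene, for 4 pathway lists and for the 6 tested genes of the 10. The points of every row lie on both sides of 0, from −0.73 at Neurl1b to 0.87 at Kdm5a, and none passed the limma threshold.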

How the data were processed

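H3K4me3 CUT&RUN libraries of 2 WT and 2 ApcMin/+ samples were analysed; the other assays and ages of the series were not analysed here. Per the labels and the methods, the authors aligned read pairs to mm10 with Bowtie2, removed duplicates with Picard and reads with a MAPQ under 10, kept fragments of 150 to 500 bp and wrote tracks with HOMER. The deposited values are signal (coverage) that the authors scaled to 10000000 tags and by 100 bp over the mean fragment length (155 to 171 bp). The age is 6 weeks in the methods and 5 in the labels. A count model was not fitted to coverage, and the fragments at a promoter are its signal summed over the window, divided by what 1 tag adds to the track.

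Promoter values were means within 1000 bp of the 5′ end of 21938 protein-coding genes (GENCODE M21). Promoters with a mean of at least 2 were tested on log2(signal + 1) by limma 3.58.1 with a trend (R 4.3.3), with Benjamini-Hochberg adjustment over all of them and a threshold of 0.05, without a block since the methods state none. A pseudocount of 1 understates changes of low promoters. Regions were called on the mean track in bins of 100 bp, joined over gaps of 500 bp, with at least 300 bp. Python 3.11.15 with scipy 1.17.1, pandas 2.3.3 and numpy 2.4.6 served for the rest.

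The 10 genes and the lists were chosen with earlier results of these data known. All 10 are named, with the 2 highest and 2 lowest tested genes of each pathway list by centred difference. The values of 1 listed gene are not reported here. Alternatives were the scaling, pseudocount, filter, window, start, replicate block and leaving out each library.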

Additional observations from a re-analysis of the deposited data

How the results depend on the processing

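As deposited, limma called 0 of the 9930 tested promoters and 0 of the 10 genes, the median difference over the genes was 0.64, and 2 genes had both ApcMin/+ libraries above both WT libraries. No gene was called in any fit with all 4 libraries. The count of promoters called was 12 after centring on the median promoter (13 at the strongest annotated start), 2 after quantile normalization and 1 with the replicate block, in which no gene was called. The median difference was −0.22 after centring and −0.16 at the strongest start with centring. The count of genes whose genotypes did not overlap was 1 after centring and 4 with a window of 500 bp. Scaling to background, the pseudocounts, the other filters and the wider window left each count within 1.5 times and the median within the spread between replicates.

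Differences turned negative at Notch2, Dll1 and Dll4 after centring (−0.49, −0.30 and −0.083), after quantile normalization (−0.31, −0.26 and −0.15) and at the strongest start with centring (−0.52, −0.21 and −0.12). With each library left out in turn, 0 to 6479 promoters and 0 to 3 genes were called, the median difference was 0.14 to 1.23, and the differences were −0.097 to 1.20 at Dll1 (−0.0042 without WT replicate 2), −0.19 to 1.73 at Dll4, 0.16 to 0.58 at Notch2, 0.24 to 1.96 at Jag1 and 0.47 to 1.40 at Atoh1. With centring as well, these were 0 to 30 promoters and 0 genes, a median of −0.45 to 0.011, and differences of −0.64 to 0.031 at Dll1, −0.31 to 0.15 at Dll4, −1.003 to 0.028 at Notch2, −0.30 to 0.78 at Jag1 and −0.27 to 0.43 at Atoh1. At the strongest start without centring they were 0 to 7119 promoters and 0 to 6 genes, a median of 0.14 to 1.51, −0.12 to 1.47 at Dll1 and −0.19 to 1.73 at Dll4. The high ends without centring came without ApcMin/+ replicate 2, where 1 library stands for ApcMin/+ and is assumed to vary like WT. The combinations with the strongest start and the order by place were chosen after seeing the data. At 10 times the genome-wide mean in place of 5 times, no region reached the 1000 bp around the gene ends of Gfi1 and Notch1. That of Atoh1 was 600 bp wide. Depth limits values that rest on few fragments, such as the 2 to 9 of Notch1, Rbpj, Gfi1 and Spdef in WT replicate 1. In the same library Hes1 and Atoh1 rested on 3 fragments each and Jag1 on 4. The causes were not tested.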
